A study of Mus musculus with 6 samples.

Results

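The large chromosome 2 cluster of olfactory receptor genes was taken as the 242 rows of the deposited receptor sheet whose symbol was Olfr and a number with nothing after it, from Olfr987 to Olfr1318. These 242 genes were 22.0% of the 1101 receptors with such a plain symbol, and the sheet held 1119 rows in all. The rule used names alone and no measured value, and it left out 5 symbols of the range that carry a pseudogene suffix. The libraries came from whole olfactory mucosa, the lining of the nasal cavity that carries the sensory neurons together with supporting cells, glands and underlying tissue. The donors were 3 C57BL/6 mice of wild-type genotype, aged 11 days after birth, and each gave 1 library from its closed nostril and 1 from its open nostril. All 6 libraries therefore came from mice with a closed naris, and without an unoperated group a closed side that is low and an open side that is high cannot be told apart. The comparison asks how receptor transcripts differ between a side cut off from odor-laden air and a side exposed to it.

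Olfactory receptors are G protein-coupled receptors of the cilia of olfactory sensory neurons. Each mature neuron transcribes a single receptor gene, usually from only 1 allele, and the receptor signals through the G protein subunit Gnal, the adenylyl cyclase Adcy3 and a cyclic nucleotide-gated channel. The genes lie in clusters, have a coding sequence without introns, and arose largely through tandem duplication, so that neighbours are often alike in sequence. In a whole-tissue library, fewer neurons choosing a receptor and less receptor RNA per neuron cannot be told apart.

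The symbols matched a single chromosome but not a single run of genes. All 242 members were on chromosome 2 in RefSeq (GRCm38.p6), where 40 receptors with numbers outside the range also lie. In GENCODE M21 (GRCm38) the members formed 2 stretches separated by 20.9 Mb. The longer stretch, chr2:85330779-90292841, ran from Olfr987 to Olfr1272 and held 206 members over 4.96 Mb. The shorter stretch, chr2:111230360-112159157, ran from Olfr1275 to Olfr1318 and held 36 members over 0.929 Mb. Both stretches mixed strands, with 72 genes on the plus and 132 on the minus strand in the longer and 15 and 21 in the shorter, and Olfr1182 and Olfr1213 found no GENCODE entry. These GENCODE positions describe the gene order, since the deposited values rest on the older build mm9.

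The sequence of the members bears on how well their reads can be told apart. Over 28441 pairs of members with a coding sequence, the median identity was 58.0%, and it was 72.3% for 234 adjacent pairs. A member's closest relative in the cluster had a median identity of 86.9%, and 51 members had a relative at 95% or more. That relative was the next gene in order for 92 members and lay within 5 positions for 181. Between the 2 stretches no pair passed 63.2%. The most alike pair was Olfr1049 and Olfr1051, with 12 differences in 927 coding bases. Their coding bases from 502 to 601 hold 4 of these differences, and no other run of 100 bases holds more. These bases are shown because Olfr1049 had the largest log2 change between sides of the cluster. The sequences are the coding strand from GENCODE M21 (GRCm38), both genes on the minus strand, at chr2:86255091-86255190 for Olfr1049 and chr2:86275885-86275984 for Olfr1051, and capitals mark the bases that differ.
Olfr1049: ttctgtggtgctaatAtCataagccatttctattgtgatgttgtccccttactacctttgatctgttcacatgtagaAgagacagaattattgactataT
Olfr1051: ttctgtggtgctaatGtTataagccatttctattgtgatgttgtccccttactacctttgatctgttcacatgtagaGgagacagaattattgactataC

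The members with the highest levels were less alike than such pairs. The first 60 coding bases of Olfr1297, Olfr1301 and Olfr1110 are shown as the start of 3 of the most abundant receptors of the cluster, with the start codon in capitals. They lie at chr2:111622013-111622072 on the minus strand, chr2:111754251-111754310 on the plus strand and chr2:87136260-87136319 on the minus strand of GRCm38.
Olfr1297: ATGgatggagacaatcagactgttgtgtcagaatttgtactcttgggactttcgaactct
Olfr1301: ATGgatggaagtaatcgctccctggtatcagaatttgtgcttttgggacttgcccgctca
Olfr1110: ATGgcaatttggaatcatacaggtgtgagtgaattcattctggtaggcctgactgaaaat
Olfr1297 and Olfr1301, both in the shorter stretch, were 79.3% identical over the whole coding sequence.

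The libraries held 24958172 to 43584803 reads, of which 93.28% to 96.99% were aligned. Closed library 1 was the shallowest and had 11.3% of its FPKM in small RNA rows, where the other 5 libraries had 3.47% to 5.27%. Values are FPKM, fragment numbers divided by transcript length and by the total mapped in that library. With the annotated coding length, the FPKM of 180 members (74.4%) were whole multiples of a constant step in all 6 libraries, within 0.05 of a step, and the step is taken here as 1 fragment. For a receptor of 939 coding bases, the commonest length in the cluster, that step was 0.0736, 0.0419 and 0.0508 FPKM in closed libraries 1, 2 and 3, and 0.0409, 0.0525 and 0.0393 FPKM in open libraries 1, 2 and 3. The fragments below are estimates of this kind, and for the other 62 members none are given. Of the members with whole steps and a mean of at least 0.1 FPKM, 175 in number, the median was 28 fragments per library, and 19 to 39 by library. Their variance between libraries of 1 side was 3.30 times the counting variance on average, with a median of 2.51. After each library was divided by its summed receptor FPKM these became 2.17 and 1.56. For 611 other receptors treated the same way the mean ratio was 3.82 before and 2.52 after the division.

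Nearly all members were detected. A total of 235 were above 0 in every library and 6 were at 0 in some, while Olfr1061 was listed at 0 in all 6. The mean over 6 libraries had a median of 1.35 FPKM over the members, with quartiles of 0.725 and 2.14, and a 90th percentile of 3.32. The highest member reached 7.24 FPKM. For the 859 other receptors the median was 1.5 FPKM, the quartiles 0.785 and 2.55, the 90th percentile 3.96 and the highest 18.5 FPKM. The ratio of the medians, cluster over other receptors, was 0.898, and library by library it ranged from 0.824 to 0.927, below 1 in 6 of 6. Few members were abundant, with 7 (2.89%) at 5 FPKM or more, against 52 (6.05%) of the others, and 0 at 10 FPKM or more, against 8 (0.931%). The highest member ranked 20 among the 1101 receptors, and 16 of the 100 highest were members. These are descriptions across genes that share libraries, with no test.

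**Figure D1:**
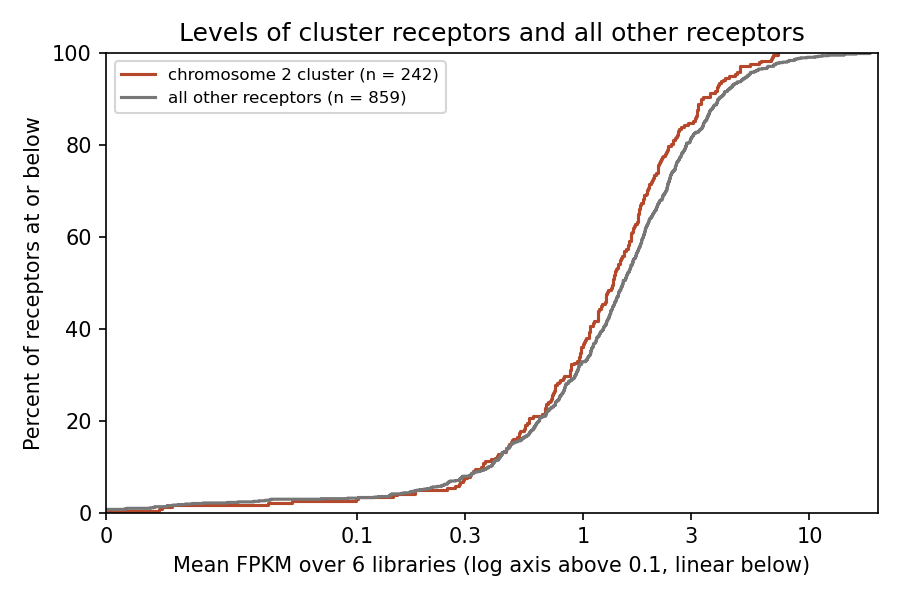
Percent of receptors (vertical axis) at or below a mean FPKM over the 6 libraries (horizontal axis, log above 0.1 and linear below), for the cluster and for all other receptors. The median of the cluster, 1.35 FPKM, lies below the 1.5 of all other receptors, and the members stop at 7.24 FPKM where the others reach 18.5.

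The 2 neighbouring blocks of the numbering lay on both sides of the cluster in level. Olfr763 to Olfr828, 57 genes assigned to chromosome 10, had a median of 1.85 FPKM, and Olfr829 to Olfr986, 111 genes assigned to chromosome 9, had 1.07. Abundant receptors were no rarer in the cluster than in these blocks. Each block had 1 gene at 5 FPKM or more, which is 1.75% and 0.901%, against 2.89% of the cluster. Within the cluster the longer stretch had 1.38 and the shorter 1.06 FPKM. The most and least abundant receptors were mixed along both stretches. The log2 levels of adjacent members had a Spearman correlation of 0.17 over 240 pairs, which share the libraries and, where alike, reads. In runs of 20 neighbours the median level ranged from 0.940 FPKM, for Olfr1134 to Olfr1161, to 2.03 FPKM, for Olfr1019 to Olfr1044. Likeness in sequence went with a somewhat smaller difference in level. The median absolute log2 difference in level was 0.78 for 63 pairs of at least 90% identity, 0.99 for 216 pairs between 80% and 90%, and 1.08 for 28162 pairs below 80%.

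**Figure D2:**
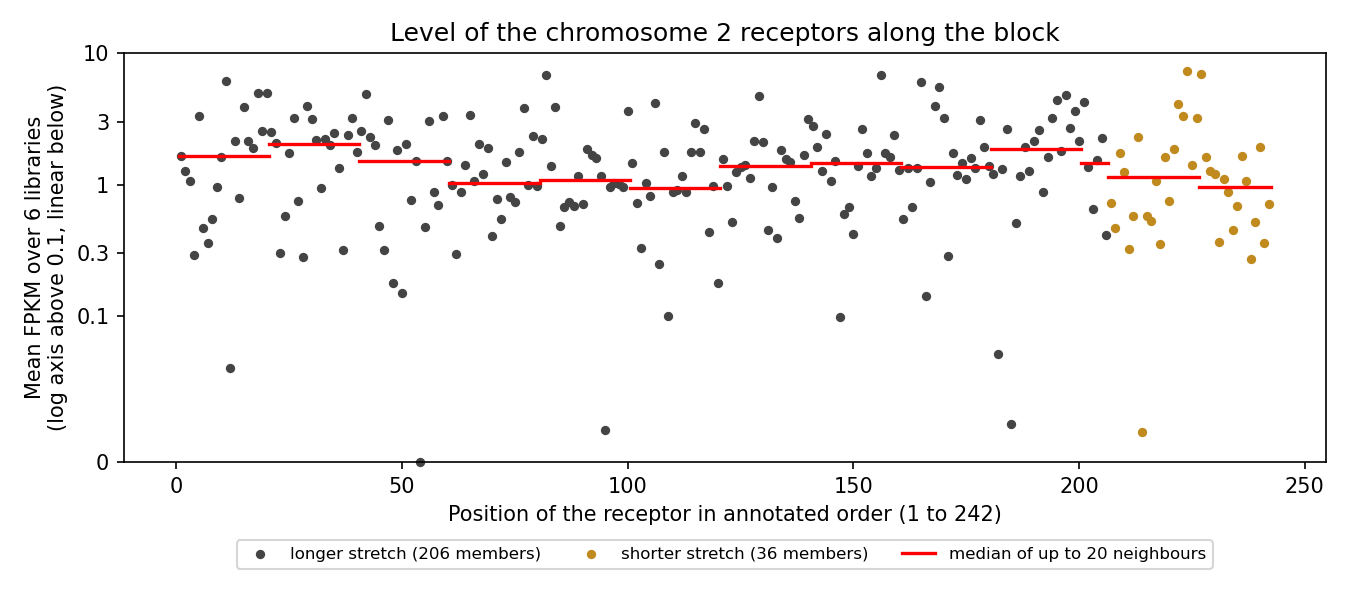
Mean FPKM over the 6 libraries (log axis above 0.1, linear below) of each member in its annotated order along chromosome 2, coloured by stretch, with red bars for the median of up to 20 neighbours. High and low receptors are mixed along the order, and the bars lie between 0.940 and 2.03 FPKM.

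The most abundant member, Olfr1297, had 6.40, 6.28 and 10.8 FPKM in closed libraries 1, 2 and 3, and 7.23, 4.57 and 8.20 FPKM in open libraries 1, 2 and 3. Closed library 3 was the highest and open library 2 the lowest, and the sides overlapped. Its fragments were 87, 150 and 212 on the closed and 177, 87 and 209 on the open side. Olfr1301 had 6.77, 6.83 and 8.12 FPKM on the closed side, and 7.44, 3.78 and 8.24 FPKM on the open side. Olfr1110, of the longer stretch, had 6.77, 5.49 and 8.43 FPKM on the closed side, and 7.19, 3.94 and 8.95 FPKM on the open side. In all 3 of these receptors open library 2 was the lowest of the 6, and the sides overlapped. Their log2 changes, closed minus open on log2(FPKM + 0.1), were 0.22, 0.23 and 0.10.

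The next highest members had sides that overlapped as well. Olfr1213, Olfr1006 and Olfr1222 had means of 6.79, 6.09 and 6.01 FPKM and log2 changes of 0.10, 0.28 and 0.18. Olfr1228 had 4.94, 5.78 and 5.21 FPKM on the closed side, and 8.89, 3.83 and 4.17 FPKM on the open side, so that open library 1 stood above all others and open library 2 below. Olfr1018 had 4.88, 5.51 and 7.09 FPKM on the closed side, and 4.51, 2.0 and 5.71 FPKM on the open side. Its closed value was above its open value in each of the 3 mice, with a log2 change of 0.61 (SE 0.35), which became 0.18 without open library 2. Its sides overlapped, since open library 3 exceeded the 2 lowest closed libraries.

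At the low end, 7 members had a mean below 0.1 FPKM, a floor that corresponded to 1.36 to 2.55 fragments, and were not tested. They were Olfr1008, Olfr1061, Olfr1128, Olfr1201, Olfr1245, Olfr1248 and Olfr1282, and their highest value in any library was 0.25 FPKM, in Olfr1201. Olfr1201, with a mean of 0.0994 FPKM, lay just below the floor and Olfr1145, with 0.101, just above. Olfr1282 and its relative Olfr1286, 97.5% identical, were listed with means of 0.0210 and 1.06 FPKM. The part of read assignment between such near-identical genes in this difference was not tested.

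Summed over its members, the cluster had 392.4, 357.0 and 499.4 FPKM in the closed and 410.6, 313.4 and 453.9 FPKM in the open libraries. The ranges overlapped, with closed library 3 highest and open library 2 lowest. The mean was 416.2 ± 74.1 FPKM on the closed and 392.6 ± 71.9 on the open side (SD, n = 3 each), and the difference was smaller than the spread between libraries (two-sided exact permutation p = 0.8, where 0.1 is the smallest that 3 against 3 allow). The sign rested on single libraries, since the difference of 23.6 FPKM became -18.0 without closed library 3 and -16.0 without open library 2. In Adcy3 the same 2 libraries were the highest and the lowest, with 186.7 FPKM in closed library 3 and 86.7 in open library 2, and 94.7 to 120.0 in the other 4. Omp, the marker of mature sensory neurons, had 1414 FPKM in open library 2, against 1652 to 2212 in the other 5. The part of neuron content in the summed values was not tested.

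**Figure D3:**
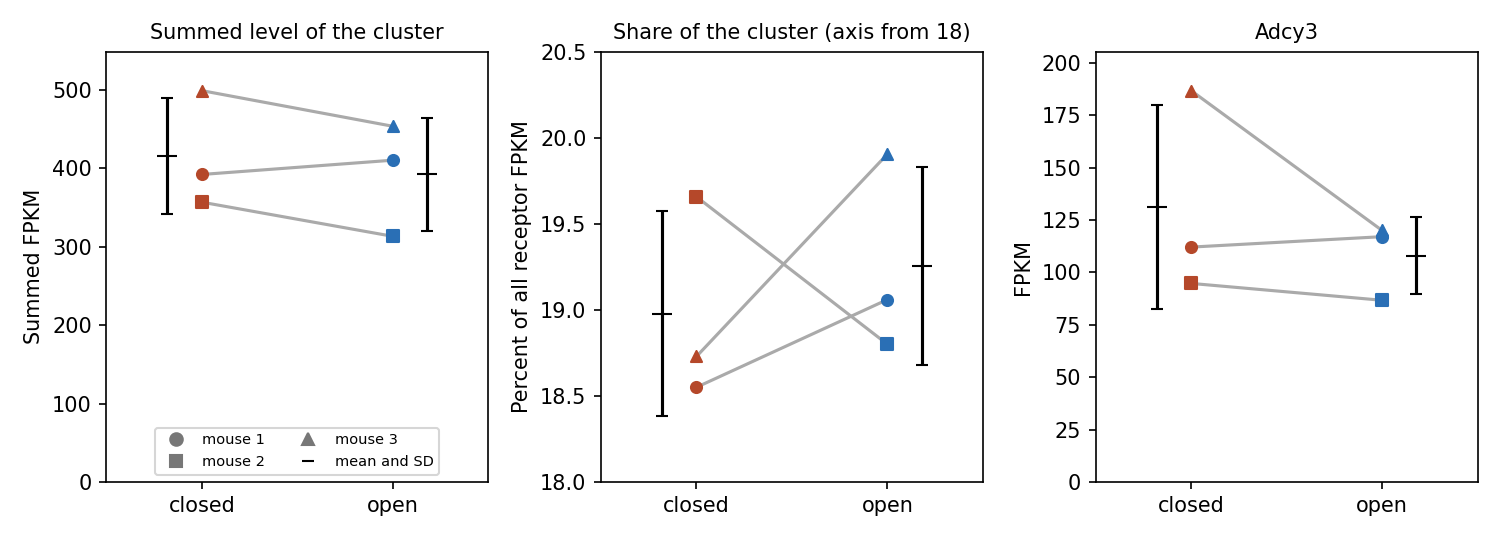
Summed FPKM of the cluster, its share of all receptor FPKM (percent, axis from 18) and Adcy3 FPKM in each library, with a symbol for each mouse, lines joining its 2 sides, and the mean and SD of each side in black. The sums range from 313.4 to 499.4 FPKM and the shares from 18.5% to 19.9%, and both overlap between sides.

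As a share of all receptor FPKM the cluster was steadier. It held 18.5%, 19.7% and 18.7% in the closed and 19.1%, 18.8% and 19.9% in the open libraries. The sides overlapped, with means of 19.0 ± 0.594% and 19.3 ± 0.578% (SD, n = 3 each; two-sided exact permutation p = 0.5). The longer stretch held 16.3 ± 0.530% on the closed and 16.8 ± 0.571% on the open side (exact permutation p = 0.3), and the shorter 2.65 ± 0.118% and 2.44 ± 0.376% (exact permutation p = 0.6). The 2 stretches thus differed in opposite directions, neither beyond the spread between libraries. Divided by Omp, the summed cluster FPKM was 0.201 ± 0.0310 on the closed and 0.227 ± 0.0449 on the open side (exact permutation p = 0.5).

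Receptor by receptor, closed and open sides were compared with limma on log2(FPKM + 0.1) over the 17987 rows of the whole gene table with a mean of at least 0.1 FPKM, with Benjamini-Hochberg adjustment over all of them at 0.05. The scale understates the change of low genes. Of the 242 members 235 were tested. None passed the limma test, as against 6 of all rows (0.0334%), 5 lower (0.0278%) and 1 higher (0.00556%) on the closed side. The lowest adjusted p of a member was 0.963 in limma with the mouse as a block, and without it every member's rounded to 1. At an unadjusted p under 0.05 in limma there were 4 members lower (1.70%, against 1.1% of all rows) and 7 higher (2.98%, against 0.656%). In either direction there were 11 members (4.68%), against 18 (2.16%) of the other receptors tested. Fitted on the receptor sheet alone, limma also called 0 members, with a lowest adjusted p of 0.999, and of 0.352 with the mouse as a block.

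The changes were small and centred near 0. The median log2 change was 0.06 over the 235 members, with quartiles of -0.14 and 0.29, against 0.10 over the other receptors tested and -0.01 over all rows. With each library scaled to its summed receptor FPKM the members' median became -0.0433, and the members at an unadjusted limma p under 0.05 became 5 lower and 4 higher, so the direction depended on the scaling. Without that scaling 137 members (58.3%) lay above 0 and 98 below, where 63.9% of the other receptors tested lay above 0. For 206 members the absolute log2 change was under 0.5. The SD of the changes was 0.34 over the members and 0.31 over the other receptors, while the median SE of a single change was 0.31. The medians by mouse were -0.03, 0.23 and 0.16 for mice 1, 2 and 3, and in the shorter stretch they were -0.17, 0.39 and 0.39. Mouse 1 thus lay below 0 and the other mice above it. Receptors kept their order of abundance between sides, with a Spearman correlation of 0.956 across the members, whose levels rest on shared sequence and length.

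**Figure D4:**
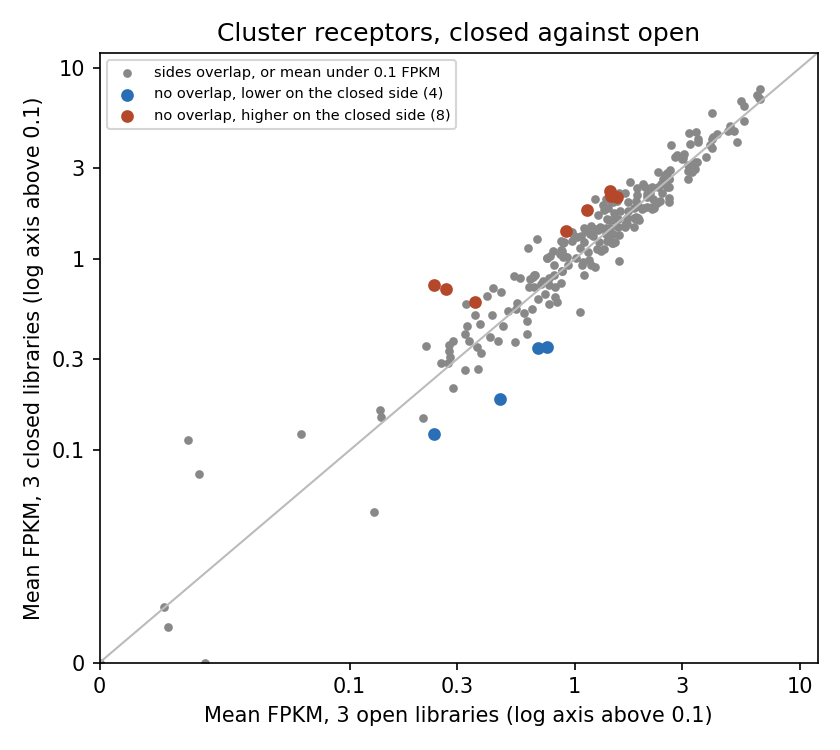
Mean FPKM of each member over the 3 closed libraries against the 3 open libraries (log axes above 0.1, linear below), with the line of equality and the members without overlap between sides in colour. Members lie along the line at all levels, and the 4 lower and 8 higher members without overlap lie at its edges below about 3 FPKM.

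The libraries of the 2 sides did not overlap for 12 members. In 4 of these (1.70%) the closed libraries were the lower ones, against 2.56% of all rows, and in 8 (3.40%) they were the higher ones, against 1.52%. Of the 832 other receptors tested, 11 were lower and 27 higher in this sense. In either direction this was 4.57% of the other receptors and 5.11% of the members. The closed side was lower in 3 of 3 mice for 17 members (7.23%, against 10.1% of all rows) and higher for 45 (19.1%, against 7.73%). Among other receptors these shares were 5.53% and 17.8%.

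The 2 members with the lowest unadjusted p were higher on the closed side and low in level. Olfr1049 had 0.823, 0.553 and 0.825 FPKM in the closed and 0.249, 0.107 and 0.359 FPKM in the open libraries. Its closed libraries all lay above its open ones, and these values stood for 11, 13 and 16 against 6, 2 and 9 fragments. The log2 change was 1.36 (SE 0.35), not past the adjusted threshold. Its near-identical neighbour Olfr1051 had 0.299, 0.298 and 0.464 FPKM in the closed and 0.208, 0.267 and 0.359 FPKM in the open libraries. There the sides overlapped, the fragments were 4, 7 and 9 against 5, 5 and 9, and the log2 change was 0.26 (SE 0.30). Reads that fall wholly where these 2 genes are identical cannot be assigned from their sequence, so both values are uncertain.

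Olfr1113 had 0.698, 0.635 and 0.770 FPKM in the closed and 0.155, 0.199 and 0.446 FPKM in the open libraries, which is 10, 16 and 16 against 4, 4 and 12 fragments. Its sides did not overlap, and its log2 change was 1.20 (SE 0.33). Its adjacent relative Olfr1115, 96.7% identical, had 0.849, 0.552 and 1.05 FPKM in the closed and 0.538, 0.260 and 0.807 FPKM in the open libraries. The sides of Olfr1115 overlapped, although the closed side was the higher one in 3 of 3 mice, and its log2 change was 0.59 (SE 0.38). Olfr1062 had 0.576, 0.574 and 0.646 FPKM in the closed and 0.480, 0.257 and 0.345 FPKM in the open libraries, and a log2 change of 0.63. Its 98.2% identical relative Olfr1057 had 0.800, 0.538 and 0.803 FPKM in the closed and 0.767, 0.986 and 0.698 FPKM in the open libraries. The sides of Olfr1057 overlapped, with the closed side higher in 2 of the 3 mice, and its log2 change was -0.18.

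Among members at 1 FPKM or more, differences without overlap were smaller than in Olfr1049 and Olfr1113 and rested on more fragments. Olfr1122 had 2.09, 2.14 and 2.55 FPKM in the closed and 1.39, 1.14 and 1.78 FPKM in the open libraries, or 30, 54 and 53 against 36, 23 and 48 fragments. Olfr1152 had 1.26, 1.35 and 1.59 FPKM in the closed and 0.906, 0.900 and 0.950 FPKM in the open libraries. Its open libraries lay close together, below all closed ones. Olfr1054 had 2.06, 2.01 and 2.28 FPKM in the closed and 1.63, 1.52 and 1.45 FPKM in the open libraries, again with little spread within a side. The log2 changes of these 3 members were 0.63 (SE 0.22), 0.55 (SE 0.20) and 0.44 (SE 0.18). Olfr1184 and Olfr1259 had log2 changes of 0.64 (SE 0.24) and 0.46 (SE 0.28), and in Olfr1259 closed library 3, at 3.19 FPKM, stood far above the other closed libraries at 1.64 and 1.61. Without that library the log2 change of Olfr1259 was 0.15.

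The 4 members lower on the closed side without overlap all had means below 1 FPKM. Olfr1279, of the shorter stretch, had 0.147, 0.209 and 0.202 FPKM in the closed and 0.529, 0.314 and 0.547 FPKM in the open libraries, or 2, 5 and 4 against 13, 6 and 14 fragments. Its log2 change was -0.96 (SE 0.30). Olfr998 had 0.134, 0.306 and 0.602 FPKM in the closed and 0.708, 0.767 and 0.787 FPKM in the open libraries. The closed libraries of Olfr998 spread widely while the open ones lay together, and its log2 change of -1.07 (SE 0.39) was the lowest of the cluster and became -0.68 without closed library 1. Olfr1164 and Olfr1161 had log2 changes of -0.89 (SE 0.32) and -0.63 (SE 0.32), but their sides were barely apart. The highest closed and lowest open values were 0.540 and 0.566 FPKM in Olfr1164, and 0.185 and 0.186 FPKM in Olfr1161.

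**Figure D5:**
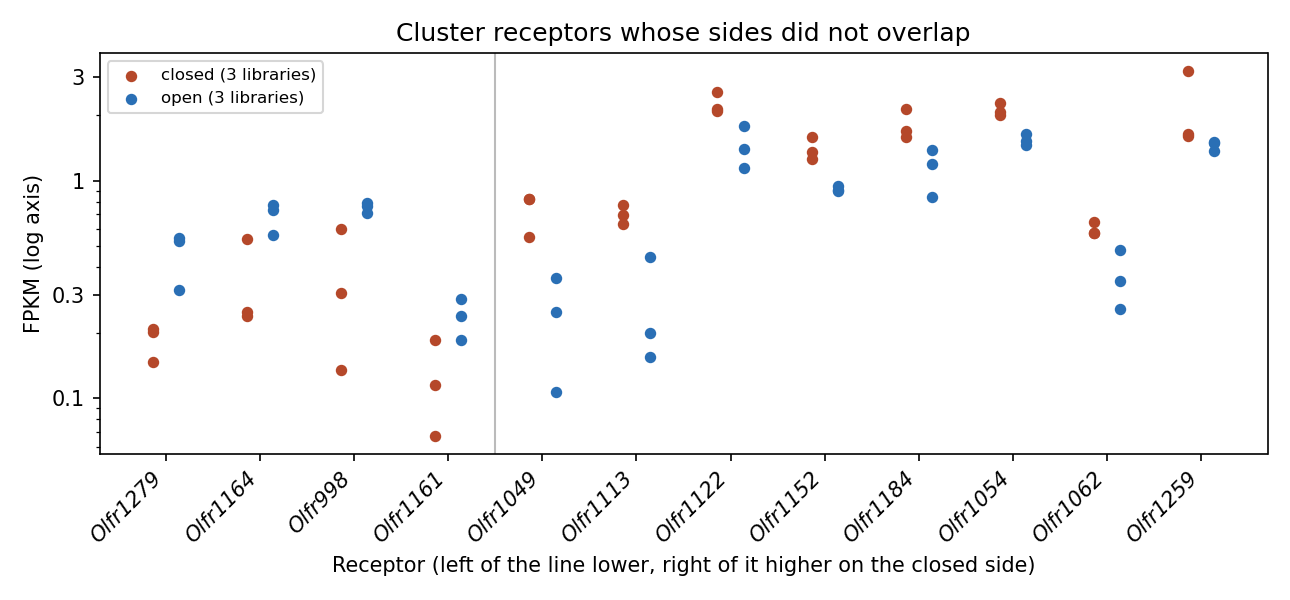
FPKM (log axis) in each closed and open library of the 12 members whose sides did not overlap, those lower on the closed side left of the line and those higher right of it. The 4 lower members stay below 1 FPKM in all libraries, and Olfr1049, Olfr1113 and Olfr1062 do so among the 8 higher ones.

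Other members varied mostly within a side. With a mean of at least 1 FPKM, the ratio of the highest to the lowest library of 1 side was largest for Olfr1302 (3.52), Olfr1199 (3.32), Olfr1137 (3.27), Olfr1221 (3.20) and Olfr1250 (3.18). Olfr1302 had 0.728, 1.32 and 2.56 FPKM in the closed and 1.78, 0.986 and 2.37 FPKM in the open libraries. Low and high libraries occurred on both sides, and the fragments were 10, 32 and 51 against 44, 19 and 61. In Olfr1199 open library 1, at 1.94 FPKM, stood above the other open libraries at 0.582 and 0.950.

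A further 3 members were named whatever their values. Olfr1019, a mouse receptor studied for its response to a fox odor, had 2.08, 2.03 and 3.02 FPKM in the closed and 2.39, 2.81 and 2.69 FPKM in the open libraries. Closed library 3 exceeded all open ones and the other closed libraries lay below them, with a log2 change of -0.16 (SE 0.21). Olfr987, the first of the number range, had 1.79, 1.14 and 1.49 FPKM in the closed and 2.36, 1.17 and 1.99 FPKM in the open libraries. Its closed value was below its open value in each of the 3 mice, but the sides overlapped, and its log2 change was -0.27 (SE 0.29). Olfr1318, the last, had a log2 change of 0.19 (SE 0.33) with overlapping sides.

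Along the order, the log2 changes of adjacent members had a Spearman correlation of 0.08 over 233 pairs. The run from Olfr1019 to Olfr1044, the most abundant, had a median log2 change of -0.21, and by mouse 0.11, -0.44 and -0.19. The run from Olfr1301 to Olfr1318 had 0.21, and by mouse -0.09, 0.26 and 0.43. In each of these runs 1 mouse lay on the other side of 0. In the run from Olfr1109 to Olfr1133, with a median log2 change of 0.20, all 3 mice lay above 0, at 0.02, 0.53 and 0.10. The run from Olfr1243 to Olfr1263, with 0.16, did as well, at 0.07, 0.37 and 0.22. So did 2 runs with a median log2 change close to 0. These were Olfr987 to Olfr1018 (-0.00859, by mouse 0.10, 0.03 and 0.28) and Olfr1082 to Olfr1107 (-0.00409, by mouse 0.03, 0.09 and 0.07).

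Genes listed for a role in receptor transcription and choice, transport to the cilia or signalling showed no call either. Of 30 such genes limma called 0, with and without the mouse as a block, against 0.0334% of all rows, and 1 had an unadjusted p under 0.05, the calcium-activated chloride channel Ano2. The median log2 change was 0.14, with 25 genes above 0 and 5 below. By role, it was 0.04 for 5 trafficking genes, 0.10 for 14 genes of receptor choice and 0.26 for 11 of the transduction cascade. Omp was counted with the transduction cascade. The trafficking helpers Rtp1 and Rtp2 had log2 changes of 0.24 and 0.04. Lhx2, Ldb1 and Ebf1, factors that bind receptor promoters and enhancers or bridge them, had 0.14, 0.08 and 0.10. Gnal, Adcy3, Cnga2 and Omp had 0.26, 0.23, 0.32 and 0.26. Leaving out 1 library moved Gnal between 0.0347 and 0.45, with the lowest value without closed library 3, Cnga2 between 0.13 and 0.45 and Omp between 0.11 and 0.44, both lowest without open library 2.

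Markers of the tissue's cell types set the frame of these values. The summed FPKM of 10 markers of mature sensory neurons was 5304 to 6088 in the closed and 4056 to 5651 in the open libraries. The tissue label thus held, and this sum was higher on the closed side in each of the 3 mice. Singly, Cngb1, Gnal, Stoml3 and Rtp1 were higher there in each mouse, and Slc17a6 was lower in each. In mouse 1 Omp, Cnga2, Adcy3 and Ano2 were lower on the closed side as well, and in mouse 3 Gng13 was. The 6 gland markers summed to 280 to 1137 FPKM in the closed and 2680 to 3368 FPKM in the open libraries, without overlap. Singly, Obp1a, Bpifb9a, Bpifb9b and Lcn11 did not overlap between sides either, while Obp2a and Sox9 did. Sox9 had 6.40, 6.44 and 7.75 FPKM in the closed and 6.21, 8.85 and 8.53 FPKM in the open libraries. The 5 sustentacular markers summed to 2064 to 2448 and 2354 to 3161 FPKM. The closed sum was the lower one in each of the 3 mice. Only Cyp2g1 among them was lower on the closed side in mouse 1 (1137 against 1286 FPKM), where Cyp1a2, Ermn, Sec14l3 and Sult1c1 were higher. All 5 were lower in mouse 2, while Cyp1a2 and Sec14l3 were higher in mouse 3. The closed value was the higher one in every mouse for 45 cluster members, 19.1%, against 17.8% of other receptors and 7.73% of all rows. It was the lower one in every mouse for 17 members, 7.23%, against 5.53% and 10.1%. The members' median log2 change was -0.03 in mouse 1, 0.23 in mouse 2 and 0.16 in mouse 3. The 5 vomeronasal markers summed to 113.1 to 146.5 and 107.7 to 129.9 FPKM, with the receptors Vmn1r51 and Vmn2r1 at or near 0. The part of these marker differences in the receptor values was not tested.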

How the data were processed

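RNA-seq libraries from 3 closed and 3 open sides were compared. Gene values are FPKM as deposited by the authors. The submitters' processing notes name Cufflinks and mm9, without versions or settings. Aligner, annotation and strand use: not given in the sources used here, so overlapping genes cannot be told apart. Each library's read count comes from a deposited sheet, as do the fraction aligned (printed as percent), RNA integrity as a score and the 28S over 18S ratio. The receptor sheet matched the table of all genes in 1119 of 1119 rows.

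Rows whose mean reached 0.1 FPKM were fitted on log2(FPKM + 0.1) with limma 3.58.1 (lmFit, eBayes with trend) in R 4.3.3, with Benjamini-Hochberg adjustment over all rows at 0.05. Sums and shares were compared with two-sided exact permutation tests (scipy 1.17.1). The script was tested on simulated data. Library precision was read from whole-fragment steps, counting error only. The members and gene lists were chosen with earlier results of these data known.

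Named were members without overlap between sides (up to 8 in each direction by lowest p), the 8 highest, the 5 with the largest ratio within a side, and Olfr1019, Olfr987 and Olfr1318. Close relatives of these are added by sequence identity, computed on coding sequence because no protein table was used. Ano2, Olfr1061, Olfr1145 and the other members below the floor, Olfr1182 and Olfr1286 were chosen after their values were seen.

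The main fit has no mouse block. A deposited sheet states that libraries of 1 number come from the same mouse, which pairs the samples. Over all rows, the 2 libraries of mice 1, 2 and 3 deviated from the means of their sides with correlations of 0.14, 0.098 and 0.17. Over the members alone these were -0.21, -0.070 and 0.0034, and over all receptors -0.17, -0.0063 and 0.22. Closed library 2 and open library 1, of different mice, had 0.25 over the members. For the members the pairing thus rests on the sheet and not on their values. The p-values measure the spread between 3 mice per side.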

Additional observations from a re-analysis of the deposited data

How the results depend on the processing

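Of 18 fits none called a member. Members at an unadjusted limma p under 0.05 numbered 0 to 5 lower and 2 to 13 higher over these fits. With the mouse as a block limma called 0 members, and the exact permutation p within mice was 0.5 for the summed FPKM and 0.75 for the share (smallest possible 0.25), so the block changed no call. The fit of the receptors alone with the block was added after seeing the data.

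The SD of the members' log2 changes over that of other receptors was 1.08, and 1.01 with a pseudocount of 1 or a floor of 1 FPKM. Leaving out 1 library gave 0.962 to 1.12. Leaving out 1 library moved the median log2 change between -0.0891 (without open library 2) and 0.18, the summed difference between -18.0 and 54.2 FPKM, with -16.0 without open library 2, and the share difference, -0.28 percentage points, between -0.62 and 0.0489. The shorter stretch alone gave 0.20 percentage points. The cause was not tested.

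Scaling to summed receptor FPKM moved the median of all rows from -0.01 to -0.12 on the log2 scale. Under it the log2 changes of Olfr1110 (-0.0063), Olfr1213 (-0.0023), Olfr1228 (-0.0847), Rtp2 (-0.0683), Ldb1 (-0.0285) and Ebf1 (-0.00845) turned negative, as did the members' median (-0.0433). All rows called lower numbered 28 under it and 10 without closed library 3, against 5. Without 1 library the log2 change ranged from -0.0293 to 0.39 for Olfr1297, -0.12 to 0.44 for Olfr1301, -0.24 to 0.34 for Olfr1110, -0.0397 to 0.26 for Olfr1213, -0.0774 to 0.39 for Olfr1222, -0.20 to 0.40 for Olfr1228, -0.66 to 0.18 for Olfr1302, -0.45 to 0.34 for Olfr1199, -0.53 to 0.22 for Olfr1137, -0.11 to 0.67 for Olfr1221, -0.16 to 0.41 for Olfr1318, -0.12 to 0.12 for Rtp2, -0.0776 to 0.22 for Ldb1, -0.0216 to 0.21 for Ebf1 and -0.0515 to 0.44 for Adcy3. It kept its sign but ranged from 0.0791 to 0.39 for Olfr1006, 0.18 to 0.91 for Olfr1018, 0.21 to 0.94 for Olfr1250, -0.34 to -0.0631 for Olfr1019, -0.55 to -0.0688 for Olfr987, 0.10 to 0.37 for Rtp1 and 0.0607 to 0.26 for Lhx2. The 12 members without overlap kept their direction in each of these fits. Leaving out 1 library could not have reversed it, since they were picked for sides that do not overlap. Only the fits that rescale or normalize the libraries could have.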
